A study of Mus musculus with 62 samples.

Results

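Neocortex of mice that carried a melanoma without wasting (NCAC) was compared with neocortex of mock-injected mice (Con) over the 3 later time points of the study, 4, 6 and 8 weeks after injection. Each arm had 5 libraries per week, 15 libraries per arm, and the comparison held 30 of the 62 libraries of the study, taken by the arm and week of their labels. Week entered the model as a blocking term. All mice were female and 2 months old, and each library is labelled as a biological replicate. NCAC mice had been injected with non-cachectic melanoma cells and Con mice were mock injected. A further arm received melanoma cells that cause cachexia (CAC) and gave 17 libraries at the same weeks. The design text names NCI Ath/nude hosts and the sample labels name C57BL6/J, so the strain of all groups is given in both ways. Athymic nude mice lack a thymus and with it most T cells, and keep B cells, NK cells and innate immunity. The labels do not name the melanoma lines, and tumour size or body weight of the mice is not used here.

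In cachexia, some tumours make the body lose muscle and fat. It is driven by circulating signals such as cytokines of the interleukin 6 and interleukin 1 families and by glucocorticoids from the adrenal gland. In the brain these signals are first met by the endothelium of blood vessels, which answers with acute phase genes, and by microglia and astrocytes. A tumour that causes no wasting serves as the arm that separates the presence of a tumour from the wasting itself. The values are TPM, transcript abundances scaled to a common sum in every library. Differences are NCAC minus Con on the log2(TPM + 1) scale, which understates differences of genes at low level, and are followed by the standard error or the 95% confidence interval of the model.

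The libraries carried the neocortical marker gene Slc17a7, which encodes the vesicular glutamate transporter of cortical excitatory neurons, at 896 to 1246 TPM in NCAC and 952 to 1173 TPM in Con. Depth estimated from the steps of low values was 46.3 to 50.1 M reads per library, with medians of 48.7 M in NCAC and 48.1 M in Con. Of the 5 NCAC libraries of week 4, 4 were run on lane 3, and all others of the 30 libraries on lane 4. Replicate 1 of NCAC at 4 weeks stood apart in hypothalamus genes, with the neuropeptide gene Pmch at 101 TPM against a highest value of 11.1 TPM in Con, and it had the highest value for 9 of 11 thalamus markers. Of 8 pigment cell genes listed, only Mitf averaged 1 TPM or more, and it differed by 0.02 between the arms. Tyr and Mlana were near 0 in both arms. Tyr, the key enzyme of melanin synthesis, was at 0 to 0.104 TPM in NCAC and 0.00924 to 0.0622 TPM in Con. Mlana was at 0 to 0.228 TPM in NCAC and 0 to 0.693 TPM in Con.

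Replicate 5 of Con at 8 weeks stood apart in immune genes, and this touches every immune list below. Its level of Igkc, the constant part of the kappa immunoglobulin chain, was 652 TPM, whereas NCAC libraries lay between 0.384 and 2.92 TPM and the other 14 Con libraries had a median of 0.938 TPM and a highest value of 183 TPM, in replicate 1 at 6 weeks. Ighm, the constant region of the immunoglobulin M heavy chain, was at 256 TPM in it, against 43.0 to 69.2 TPM in NCAC and 42.7 to 65.7 TPM in the other 14 Con libraries. Some genes of T and NK lymphocytes were also high there: Cd3g, a chain of the T cell receptor complex, was at 7.50 TPM and Cd3e at 3.20 TPM. The highest values in NCAC were 0.133 TPM for Cd3g and 0.148 TPM for Cd3e. Nkg7, a gene of cytotoxic granules, was at 8.38 TPM in this library and at no more than 0.231 TPM in any NCAC library. Of the 9 listed T and NK genes only 2 averaged 1 TPM or more. Both had their highest value in an NCAC library rather than in this one. B2m, the light chain of MHC class I, was at 935 TPM in it, against a highest value of 203 TPM in NCAC and 277 TPM in the other Con libraries. This library also had the highest value of all 30 for 22 of 22 tested interferon-induced genes, 10 of 10 MHC class I genes, 15 of 17 microglia genes and 8 of 10 complement genes. Results on these lists are therefore given with and without it.

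Across the whole transcriptome the neocortex of NCAC mice was close to that of Con mice. Of 14490 genes tested with limma, 0 were called at an adjusted p under 0.05, which is 0% of those tested, and the lowest adjusted p was 0.372. At an unadjusted p under 0.05 there were 1904 genes, 215 of them higher and 1689 lower in NCAC. The median absolute difference was 0.0461 and 83.55% of genes differed by less than 0.1. The median width of the 95% interval to either side was 0.0899. For 14293 genes, 98.64% of those tested, the whole interval lay within 1.5-fold of no difference, and for 99.56% it lay within 2-fold. These folds are of TPM + 1, so for genes at low level they allow a larger fold in TPM. Lower values in NCAC were found for 72.05% of genes, with a median difference of -0.03, but this share depended on scaling. With TMM scaling, a trimmed mean that centres the libraries, 50.49% of genes were lower, and 812 genes were higher and 676 lower at an unadjusted p under 0.05. With reads estimated from TPM and fitted with voom, 56.41% were lower.

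No gene passed the test in any single week. At 4 weeks 0 genes were called (0%) and 176 had an unadjusted p under 0.05, at 6 weeks 0 (0%) and 1526, and at 8 weeks 0 (0%) and 1134, all with limma. The test of whether the difference changed over the 3 weeks called 0 genes (0%), with 326 at an unadjusted p under 0.05 and a lowest adjusted p of 0.992. The genes with the lowest p in that test were Inafm1, Pdgfb and Pcgf1. Pdgfb, the endothelial growth factor that recruits pericytes, differed by -0.02, 0.09 and -0.39 at 4, 6 and 8 weeks. Inafm1 differed by -0.10, 0.32 and -0.02, and Pcgf1, a member of the Polycomb group, by -0.13, 0.10 and 0.23. In each of these genes the 3 weeks disagreed in direction, and none passed.

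Genes that mark the wasting response of the neocortex lay near the mock level in NCAC mice. Lrg1, a secreted acute phase glycoprotein made by brain endothelium, had a lowest, median and highest level of 1.15, 1.82 and 2.82 TPM in NCAC libraries, against 1.28, 1.76 and 5.29 TPM in Con libraries, the last value being replicate 5 of Con at 8 weeks. The groups overlapped almost wholly. The difference was -0.04 with a 95% interval from -0.27 to 0.18, and 0.04 without that library. In CAC mice Lrg1 was at 1.80, 9.58 and 25.4 TPM, and the difference from Con was 1.78 with an interval from 1.35 to 2.21 (limma, adjusted p = 4.67e-06), so the NCAC interval ended below the lower bound for CAC. The comparisons of CAC and of NCAC with Con share the Con libraries. CAC against Con called 2574 of 14539 genes (17.7%), 1840 higher and 734 lower in CAC. CAC against NCAC called 4429 of 14485 (30.6%), 3692 higher and 737 lower in CAC. Lower values in CAC were found for 38.43% of genes against Con and 28.36% against NCAC. For NCAC against Con such a share depended on scaling, so these counts are not read as distances between arms. At week 4 all CAC libraries were run on lane 3 and all Con libraries on lane 4.

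Fkbp5, a co-chaperone that glucocorticoids induce, was at 13.3, 16.6 and 25.0 TPM in NCAC and 12.9, 17.3 and 25.1 TPM in Con, as lowest, median and highest. Its difference was -0.01 with an interval from -0.21 to 0.19, and its sign turned to 0.03 with TMM scaling. In CAC mice the difference from Con was 0.97 with an interval from 0.61 to 1.34. Lcn2, which encodes the siderophore-binding protein lipocalin 2, did not reach the level filter. It was at 0.0519, 0.510 and 0.962 TPM in NCAC and 0.150, 0.394 and 0.911 TPM in Con, and without the filter the difference was 0.07 with an interval from -0.09 to 0.23. In CAC it was at 0.201, 2.21 and 13.2 TPM. Ighm was at 43.0, 53.0 and 69.2 TPM in NCAC and 42.7, 55.5 and 256 TPM in Con, a difference of -0.17 (interval -0.46 to 0.12) that was -0.03 without replicate 5 of Con at 8 weeks. In CAC its difference from Con was -1.03 and from NCAC -0.85.

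Further genes that were chosen for their size in CAC mice after their values were seen are given in the same way. Etnppl, an astrocytic enzyme of phosphoethanolamine breakdown, differed by 0.01 (interval -0.32 to 0.34) in NCAC and by 1.81 in CAC against Con. Plin4, a lipid droplet coat protein, varied widely between mice, with 0.795 to 11.3 TPM in NCAC and 0.710 to 12.5 TPM in Con, and differed by -0.07 (interval -0.76 to 0.61) in NCAC and by 1.99 in CAC. Apln, the ligand of the apelin receptor, differed by -0.05 (interval -0.22 to 0.13) in NCAC and by -0.83 in CAC. Cebpd, a transcription factor of the acute phase, differed by 0.17 (interval -0.13 to 0.47) in NCAC and by 1.04 in CAC. Of the 17 tested glucocorticoid-responsive genes 5 were higher, 12 lower (70.59%, beside 72.05% of all genes) and 0 called. Their median was -0.01, and 0.01 with TMM scaling. The median was -0.08, -0.08 and 0.08 at 4, 6 and 8 weeks, and 0.15 at 8 weeks without replicate 5 of Con. At 2 weeks it was 0.33, with 15 of 17 higher and 0 called. Mt1, a metallothionein, differed by 0.10 and the cell cycle inhibitor Cdkn1a by -0.11.

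**Figure D1:**
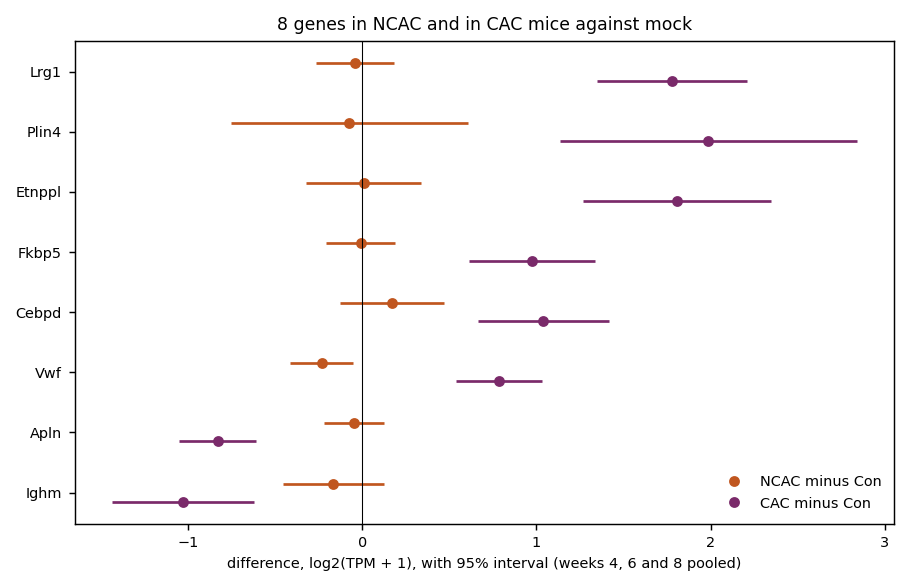
Differences from Con in NCAC (orange) and in CAC (purple) mice over weeks 4, 6 and 8 for 8 genes, on the log2(TPM + 1) scale, with the model's 95% interval as a line. The NCAC values lie near 0 for Lrg1 (-0.04), Etnppl (0.01) and Fkbp5 (-0.01), where the CAC values are 1.78, 1.81 and 0.97.

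The genes with the lowest p in the lower direction differed by -0.15 to -0.30, and each had an adjusted p of 0.372 with limma. Ifit2, an antiviral protein of the interferon response, is a protein-coding gene on chromosome 19 from 34550694 to 34576419 (GRCm38, plus strand). Its levels at 4 weeks were 8.80, 6.30, 8.05, 7.21 and 7.68 TPM in NCAC and 8.76, 8.90, 9.17, 7.58 and 7.21 TPM in Con. At 6 weeks Ifit2 was at 8.45, 7.92, 7.73, 7.27 and 5.90 TPM in NCAC and 9.97, 9.97, 8.40, 8.94 and 8.07 TPM in Con. At 8 weeks it was at 8.35, 8.59, 8.43, 7.42 and 7.75 TPM in NCAC and 9.19, 9.44, 9.59, 9.14 and 12.8 TPM in Con. At 8 weeks the arms did not overlap, and over all weeks 15 of 15 NCAC libraries were below the Con median. Ifit2 was named for a low p in these same libraries, and the share of all genes that separate so was not computed. The pooled difference was -0.21 ± 0.05 (SE), and -0.19 without the highest Con library.

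Zbtb46, a transcription factor known from classical dendritic cells and endothelium, had the lowest p. It was at 3.30 ± 0.352 TPM in NCAC and 3.79 ± 0.368 TPM in Con (SD, n = 15 each), a difference of -0.16 ± 0.04, with -0.19, -0.14 and -0.15 at 4, 6 and 8 weeks.

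Ppwd1, a peptidyl-prolyl isomerase of the spliceosome, was at 7.73 ± 1.08 TPM in NCAC and 9.78 ± 1.73 TPM in Con, a difference of -0.30 ± 0.07. At 4 weeks its arms overlapped only between 8.45 and 9.0 TPM, and at 6 weeks they overlapped over most of their range. Further genes of this direction were Prrg3 (-0.15), Hif1an (-0.19), the asparaginyl hydroxylase that inhibits hypoxia-inducible factor, Haus3 (-0.16), a subunit of the augmin complex of the spindle, and Edrf1 (-0.18). At 2 weeks, in 10 libraries that the pooled comparison did not use, Ppwd1, Prrg3, Hif1an, Haus3 and Edrf1 had values above 0, between 0.02 and 0.12. In those libraries Zbtb46 differed by -0.12 and Ifit2 by -0.02.

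In the higher direction the genes with the lowest p also had an adjusted p of 0.372. Pllp, which encodes the myelin membrane protein plasmolipin, was at 59.2 ± 5.27 TPM in NCAC and 53.0 ± 5.06 TPM in Con, a difference of 0.16 ± 0.05, with 14 of 15 NCAC libraries above the Con median. It differed by 0.14, 0.16 and 0.18 at 4, 6 and 8 weeks, by -0.27 at 2 weeks, and by -0.32 in CAC mice against Con. Tmem163, a zinc transporter, was at 9.89 ± 0.92 TPM in NCAC and 8.65 ± 1.23 TPM in Con (0.18 ± 0.06), with 0.17, 0.19 and 0.19 over the 3 weeks. Tctex1d4 (0.27) lay near 1 TPM. Slc9a3r1 (0.14), a scaffold of membrane transporters, Tmem158 (0.19) and Romo1 (0.13), a mitochondrial inner membrane protein, were further genes of this direction, which also held Lyrm7 and Tnip1. At 2 weeks Tmem158 and Romo1 differed by 0.17 and 0.11, and Tmem163, Slc9a3r1 and Tctex1d4 by -0.07, -0.10 and -0.02. Without replicate 5 of Con at 2 weeks Tmem163 and Tctex1d4 differed by 0.17 and 0.24. In the pooled comparison the 8 genes of this direction and the 7 named in the lower direction kept their sign under every alternative computed. The alternatives include TMM scaling and the lane 4 libraries alone. These genes were chosen for a low p in the same libraries. The kept sign and the counts of libraries past a median are therefore no independent evidence of a difference.

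**Figure D2:**
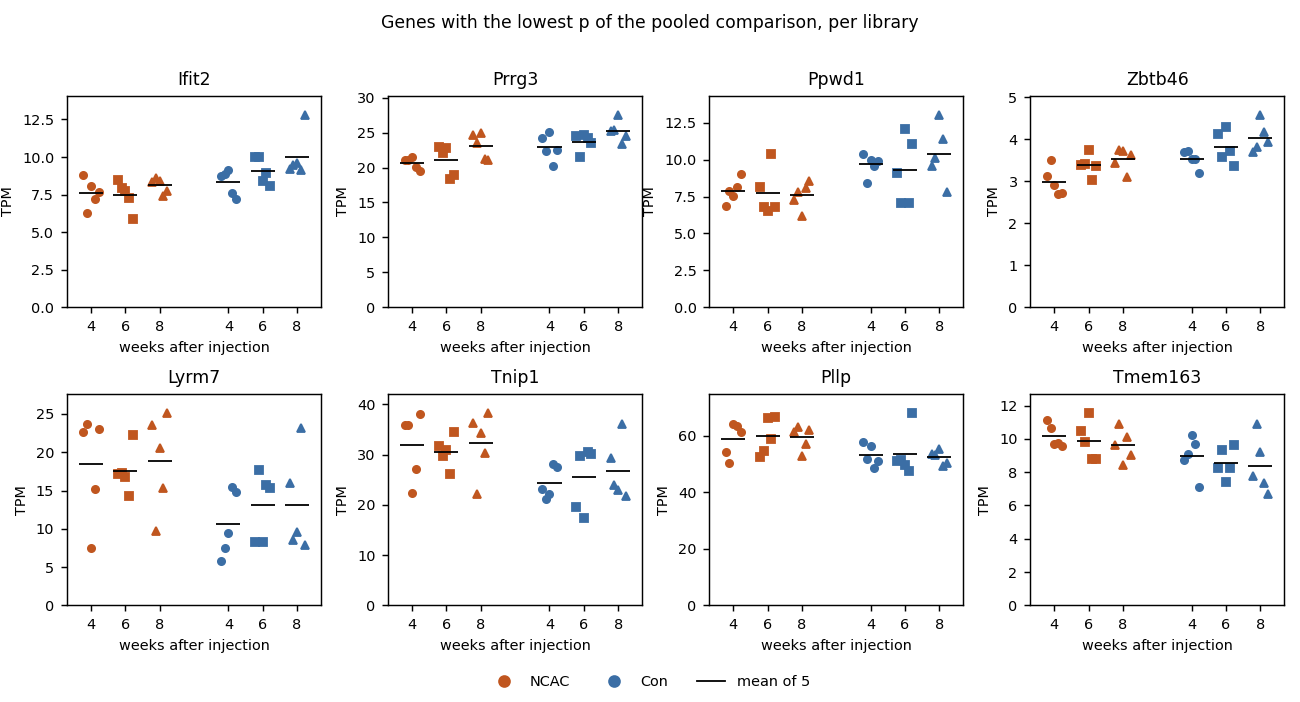
TPM per library of 4 genes lower and 4 genes higher in NCAC (orange, left) than in Con (blue, right) by week after injection, with the mean of each group of 5 as a line and axes that start at 0. The arms overlap in every gene, and 15 of 15 NCAC libraries are below the Con median for Ifit2 and 14 of 15 above it for Pllp. The genes were chosen for a low p in these libraries.

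Lyrm7 and Tnip1, both among the genes with the lowest p in the higher direction, varied together. Lyrm7 encodes an assembly factor of respiratory complex III and Tnip1 an inhibitor of nuclear factor kappa B signalling. They are protein-coding neighbours on the minus strand of chromosome 11, Lyrm7 from 54826866 to 54860916 and Tnip1 from 54910785 to 54962917 (GRCm38), 49.9 kb apart. Of the 13983 tested genes with an annotated position, Tnip1 was the one whose ranks over the 30 libraries were most like those of Lyrm7. Lyrm7 was at 7.53, 17.2 and 25.1 TPM in NCAC and 5.76, 9.59 and 23.2 TPM in Con as lowest, median and highest (difference 0.57 ± 0.17), and Tnip1 at 22.1, 31.6 and 38.2 TPM in NCAC and 17.5, 23.9 and 36.1 TPM in Con (0.30 ± 0.09).

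The Lyrm7 levels of the 30 libraries fell into 3 ranges with gaps between them, a split seen after the values were known and given without a test. In 10 libraries Lyrm7 was at 5.76 to 9.67 TPM, in 12 at 14.3 to 17.7 TPM and in 8 at 20.5 to 25.1 TPM. Tnip1 in the same libraries was at 17.5 to 23.9, 26.1 to 31.6 and 34.3 to 38.2 TPM, so its ranges did not overlap either. The lowest range held 2 NCAC and 8 Con libraries, the middle range 6 and 6, and the highest 7 and 1. Each arm held libraries of all 3 ranges. Of the 32 libraries outside this comparison 4 were at 4.44 to 9.07 TPM for Lyrm7, 14 at 11.1 to 17.7 TPM and 14 at 20.6 to 24.9 TPM. Their lower gap was narrower than that of the 30 libraries, and for Tnip1 the low libraries reached 25.0 TPM, where the middle ones began. The CAC arm of all 4 weeks gave 3 libraries to the lowest range, 10 to the middle and 9 to the highest. At 2 weeks Lyrm7 differed by -0.16 and Tnip1 by -0.08. What sets the range of a library was not tested, and for Lyrm7 and Tnip1 the arm and the mice that fell in it cannot be told apart.

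**Figure D3:**
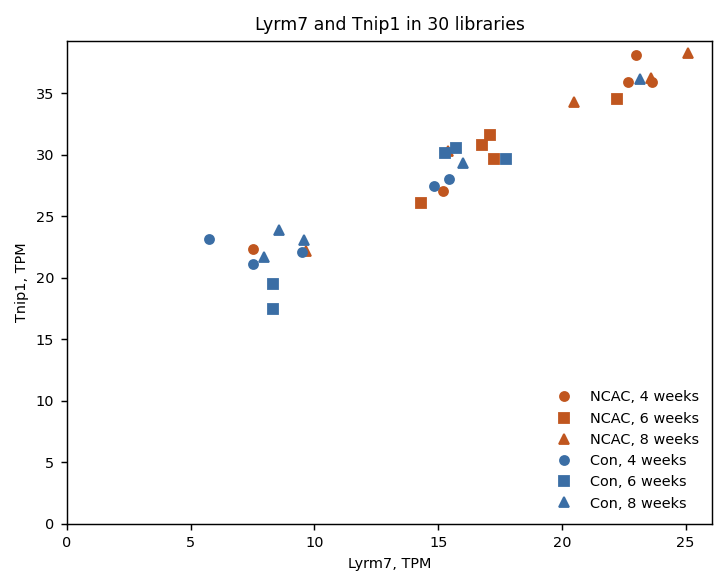
Level of Tnip1 against Lyrm7 in TPM for the 15 NCAC (orange) and 15 Con (blue) libraries, with the week given by the symbol. The libraries lie in 3 groups along both axes, with 2, 6 and 7 NCAC and 8, 6 and 1 Con libraries from low to high.

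Interferon-induced genes are switched on by a transcription factor complex that binds a repeat of the letters GAAA in their promoters. The neighbouring Ifit genes, which encode proteins that bind viral RNA, are shown here because they carry this element to different degrees and led the interferon list. The sequences are RefSeq promoters of build GRCm38.p6, 250 bases before to 50 after the start, on the plus strand of chromosome 19, with each match to GAAANNGAAA on either strand in capitals. The windows are chr19:34640639-34640938 for Ifit1, chr19:34583279-34583578 for Ifit3 and chr19:34550444-34550743 for Ifit2.
Ifit1: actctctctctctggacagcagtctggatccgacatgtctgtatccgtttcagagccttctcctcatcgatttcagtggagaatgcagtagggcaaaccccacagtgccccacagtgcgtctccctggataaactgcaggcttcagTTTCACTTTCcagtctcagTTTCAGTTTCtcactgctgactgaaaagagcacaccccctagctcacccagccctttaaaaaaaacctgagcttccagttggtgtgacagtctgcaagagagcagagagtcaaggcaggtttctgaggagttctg
Ifit3: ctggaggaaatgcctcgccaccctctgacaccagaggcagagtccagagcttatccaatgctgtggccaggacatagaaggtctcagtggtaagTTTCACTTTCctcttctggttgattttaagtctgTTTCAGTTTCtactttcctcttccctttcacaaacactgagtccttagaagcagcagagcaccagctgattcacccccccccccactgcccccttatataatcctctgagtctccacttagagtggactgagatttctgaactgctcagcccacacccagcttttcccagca
Ifit2: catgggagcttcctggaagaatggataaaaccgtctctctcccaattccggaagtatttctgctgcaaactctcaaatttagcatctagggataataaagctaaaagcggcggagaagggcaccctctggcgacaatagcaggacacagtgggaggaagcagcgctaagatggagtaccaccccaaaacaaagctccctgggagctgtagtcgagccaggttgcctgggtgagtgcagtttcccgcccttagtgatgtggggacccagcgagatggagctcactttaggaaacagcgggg
Ifit1 and Ifit3 held 2 matches each, all read on the minus strand and within 200 bases of the start, and Ifit2 held none in this window or in that of its second start. Of the 20 tested interferon-induced genes with a promoter 14 held the element, 70%, against 3.52% of the 10779 tested genes with a promoter. The median difference was -0.24 over the 14 genes with the element and -0.20 over the 6 without it, given as a description.

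All 22 tested interferon-induced genes were lower in NCAC than in Con, with a median difference of -0.20 and 0 called (0% of all genes), beside a median of -0.03 and 72.05% lower over all genes. With TMM scaling the median was -0.17 and 22 were lower. Without replicate 5 of Con at 8 weeks the median was -0.10 and 20 of 21 were lower, beside 73.06% of all genes. Ifit3 was at 9.12, 14.0 and 19.5 TPM in NCAC and 12.7, 16.3 and 49.6 TPM in Con as lowest, median and highest, a difference of -0.41 ± 0.14 (adjusted p = 0.372 with limma), and -0.31 without that library. Ifit1 was at 1.73, 2.20 and 4.02 TPM in NCAC and 0.940, 3.22 and 8.12 TPM in Con, a difference of -0.32. Ifit3 has a near-identical neighbour, Ifit3b, so its reads may be divided between both. The list had 5 members with an unadjusted p under 0.05, all lower.

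The weeks differed in this list. Its median was 0.09 at 4 weeks, -0.23 at 6 weeks and -0.54 at 8 weeks, and -0.21 at 8 weeks without replicate 5, with 22 of 22 genes still lower. At 2 weeks the median was -0.16, with 17 of 20 tested genes lower. Ifit2 and Ifit3 differed by -0.02 and 0.08 at 2 weeks, and by 0.02 and 0.17 without replicate 5 of Con at 2 weeks. Without week 8 the pooled median was -0.05. Within lane 4, which leaves out 4 of the 5 NCAC libraries of week 4, it was -0.31. The mean log2 level of the list spanned 2.38 to 2.77 in NCAC libraries and 2.01 to 4.26 in Con libraries, the highest value being that of replicate 5 of Con at 8 weeks.

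MHC class I genes, which present peptides to T cells, are also raised by interferon. All 10 tested members were lower, with a median of -0.19, and -0.31 within lane 4. Without replicate 5 of Con at 8 weeks, however, the median was -0.03, beside -0.04 over all genes, and 8 were lower (80%, beside 73.06%). Psmb8, a subunit of the immunoproteasome, was at 2.12, 2.56 and 3.70 TPM in NCAC and 1.82, 2.82 and 21.4 TPM in Con. The difference of B2m was -0.26, and -0.10 without that library. Of the 10 tested complement genes 9 were lower, with a median of -0.17. Without that library only 8 complement genes passed the level filter, so this median and the next are over different genes. Of these 8 genes 6 were lower (75%, beside 73.06% of all genes), with a median of -0.07. With all libraries Cd59a, which blocks the membrane attack complex, was the member in the other direction, at 0.18. Its medians were 18.6 TPM in NCAC and 16.9 TPM in Con.

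Of the 17 tested microglia identity genes 16 were lower (94.12%, beside 72.05% of all genes), with a median of -0.09. Without replicate 5 of Con at 8 weeks 14 were lower (82.35%, beside 73.06%), with a median of -0.05. The list median was 0.01, -0.05 and -0.25 at 4, 6 and 8 weeks, and -0.13 at 8 weeks without that library. At 2 weeks 17 of 17 were lower and 0 called, with a median of -0.19, beside 45.08% of all genes lower. Gpr34, a microglial lysophospholipid receptor, was at 16.8, 19.5 and 23.4 TPM in NCAC and 18.5, 21.4 and 24.9 TPM in Con, a difference of -0.11. Csf1r, the receptor that keeps microglia alive, differed by -0.11, and by -0.06 without that library. In bulk tissue fewer cells of a type and less RNA per cell cannot be told apart. The list of cytokine and acute phase genes had 12 of 15 tested members lower (80%, beside 72.05% of all genes) and a median of -0.08. Without replicate 5 of Con at 8 weeks 10 of 15 were lower (66.67%, beside 73.06% of all genes) and the median was -0.05. Il6ra, the interleukin 6 receptor subunit, was at 2.02, 2.49 and 3.09 TPM in NCAC and 2.46, 2.87 and 3.90 TPM in Con. Its difference was -0.15 ± 0.05, and it was named for a low p in these same libraries. In CAC mice Il6ra differed from Con by 0.23 (limma, adjusted p = 0.0102). Cp, the ferroxidase ceruloplasmin, differed by -0.17 in NCAC and by 0.43 in CAC.

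**Figure D4:**
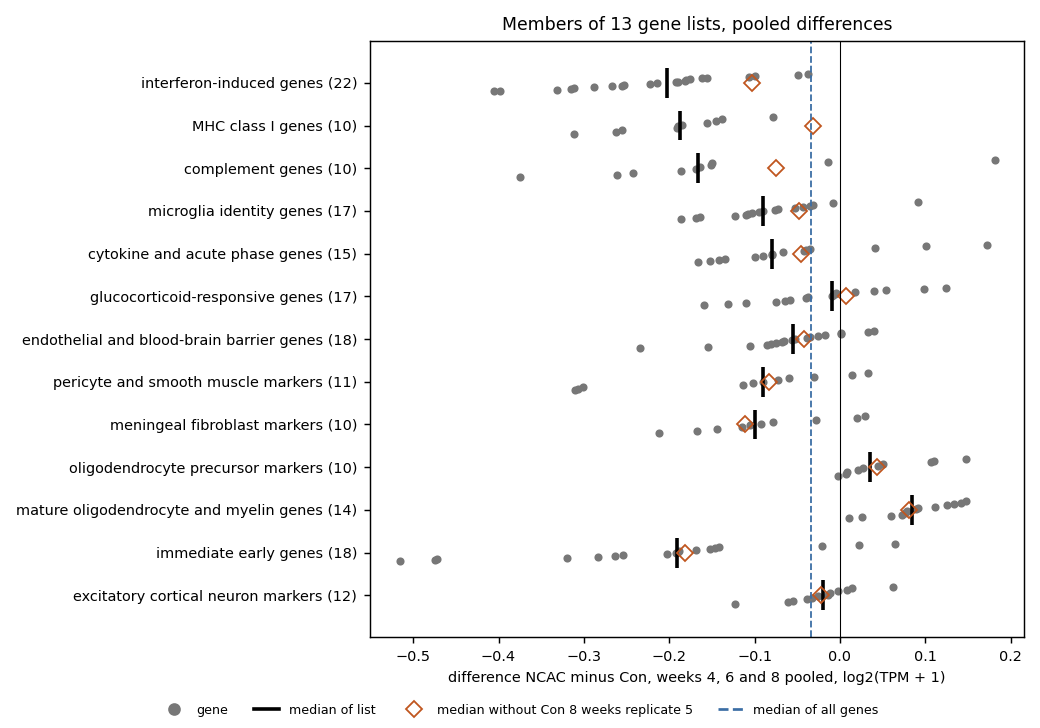
Pooled differences NCAC minus Con on the log2(TPM + 1) scale for the tested members of 13 gene lists (grey points, number in parentheses), with the median of each list (black bar), its median without replicate 5 of Con at 8 weeks (orange diamond) and the median of all genes (dashed line, -0.03). The interferon list has a median of -0.20 with all libraries and -0.10 without that one, and the myelin list 0.08 in both.

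Myelin genes lay in the other direction. All 14 tested members of the mature oligodendrocyte list were higher in NCAC, with a median of 0.08, 0 called, and 0.12 with TMM scaling. Within lane 4 the median was 0.09 and 2 of the 14 were lower. The medians were 0.09, 0.09 and 0.08 at 4, 6 and 8 weeks, and 0.08 without replicate 5 of Con at 8 weeks. Mag, the myelin-associated glycoprotein of the inner myelin wrap, was at 92.5, 108 and 162 TPM in NCAC and 79.3, 101 and 118 TPM in Con, a difference of 0.15 ± 0.07 (adjusted p = 0.372 with limma). Cnp, a phosphodiesterase of non-compact myelin, was at 213, 252 and 315 TPM in NCAC and 200, 235 and 267 TPM in Con (0.09 ± 0.04). Mbp, the main cytoplasmic protein of compact myelin, differed by 0.09.

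The highest of the 30 values belonged to an NCAC library for 14 of 14 myelin genes, and for 11 of them to replicate 4 at 4 weeks. The lowest median of the myelin list when any single library was left out was 0.07. Of the 10 tested oligodendrocyte precursor and lineage genes 9 were higher, with a median of 0.04. Olig2, the transcription factor that sets the oligodendrocyte lineage, was at 21.5, 26.4 and 32.9 TPM in NCAC and 19.8, 24.1 and 27.7 TPM in Con, a difference of 0.15 ± 0.05 (adjusted p = 0.372 with limma), and Olig1 differed by 0.11. At 2 weeks the medians were -0.12 for myelin genes and -0.19 for precursor genes. Replicate 5 of Con at 2 weeks stood apart, with a mean log2 level of thalamus markers of 5.52 against 3.21 to 3.37 in the other 4 Con libraries. Without it the 2-week medians were 0.0048 for myelin genes, with 7 of 14 lower, and -0.10 for precursor genes. In CAC mice Mag differed from Con by -0.19 and Cnp by -0.15. Thalamus markers were also higher over the 3 weeks, for 11 of 11 genes with a median of 0.07, made of 0.15, 0.14 and -0.06 at 4, 6 and 8 weeks, and 9 of 11 were lower at 8 weeks. Striatum markers were higher for 10 of 11 genes, with a median of 0.04. With the marker scores of other tissue as terms in the model the myelin median was 0.04 and 5 of 14 genes were lower.

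The list of pericyte and smooth muscle genes had 9 of 11 tested members lower (81.82%, beside 72.05% of all genes), a median of -0.09 and 0 called. Its members with the lowest values of the difference were Acta2, Myh11 and Tagln. Acta2, smooth muscle actin, was at 16.3, 22.2 and 31.3 TPM in NCAC and 19.9, 26.6 and 37.6 TPM in Con, a difference of -0.30 ± 0.09 (adjusted p = 0.372 with limma). Myh11, smooth muscle myosin, was at 4.05, 5.88 and 9.12 TPM in NCAC and 4.74, 8.15 and 11.3 TPM in Con (-0.31 ± 0.09), and Tagln, an actin-binding protein of the same cells, differed by -0.31 ± 0.10. At 2 weeks, in the libraries not used here, Acta2 differed by -0.70 and Myh11 by -0.67, both with an adjusted p of 0.0976 in limma. Myl9, a myosin light chain of smooth muscle, differed by -0.09, Notch3 by -0.10, Abcc9 by -0.11 and Higd1b by -0.07. The remaining members of the list, Pdgfrb, Rgs5, Kcnj8 and Vtn, differed by -0.03, -0.06, 0.01 and 0.03.

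The endothelial and blood-brain barrier list had 14 of 18 members lower (77.78%, beside 72.05% of all genes) and a median of -0.05. Vwf, von Willebrand factor of endothelial cells, was at 2.31, 3.93 and 4.54 TPM in NCAC and 3.08, 4.43 and 11.2 TPM in Con, a difference of -0.23 ± 0.09, and -0.16 without replicate 5 of Con at 8 weeks. In CAC mice it differed from Con by 0.79. Of the 10 meningeal fibroblast markers 8 were lower (80%, beside 72.05% of all genes), with a median of -0.10. Lum, a proteoglycan of the meningeal matrix, was at 2.34, 3.58 and 4.4 TPM in NCAC and 3.62, 4.20 and 5.07 TPM in Con. Its difference was -0.21 ± 0.06, and it was named for a low p in these same libraries. Col3a1, a fibrillar collagen, differed by -0.14. Without week 4 the meningeal median was 0.01 and within lane 4 -0.03, and how much meninges each piece of tissue held was not tested.

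Activity-regulated genes varied more between mice than between arms. Fos, an immediate early transcription factor induced by neuronal firing, was at 5.68, 23.3 and 59.1 TPM in NCAC and 9.01, 38.1 and 58.6 TPM in Con as lowest, median and highest, and the ranges nearly coincided. Its difference was -0.52 ± 0.32 (adjusted p = 0.443 with limma). Arc, a synaptic activity gene, was at 24.5 to 318 TPM in NCAC and 44.0 to 314 TPM in Con. The list had 16 of 18 members lower (88.89%, beside 72.05% of all genes) and a median of -0.19. This was made of 0.15 at 4 weeks, -0.36 at 6 weeks and -0.34 at 8 weeks. The median was -0.41 pooled within lane 4, and 0.48 at 2 weeks, where 18 of 18 were higher. Among neuronal genes, excitatory markers had a median of -0.02, inhibitory markers -0.03 and synaptic genes -0.03, close to that of all genes. Of 21 cholesterol synthesis genes 15 were lower (71.43%, beside 72.05% of all genes), with a median of -0.02. Sst, the somatostatin peptide of a class of inhibitory neurons, was at 860 to 1162 TPM in NCAC and 767 to 978 TPM in Con, a difference of 0.09 ± 0.04.

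**Figure D5:**
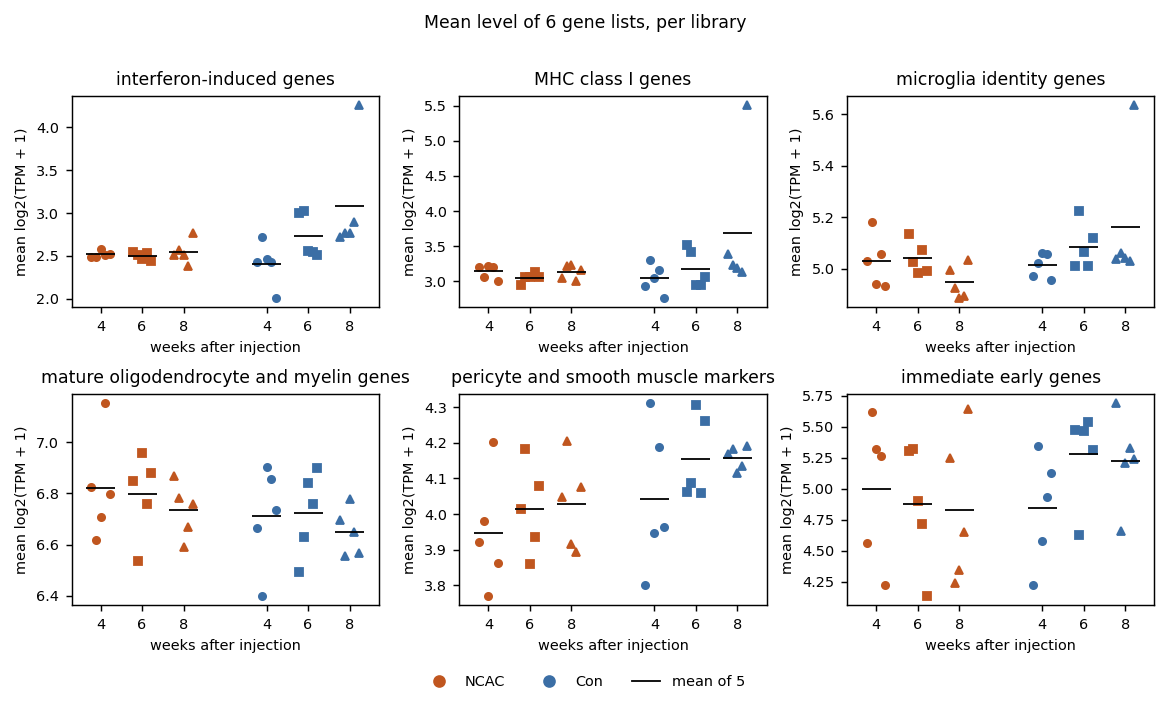
Mean log2(TPM + 1) over all measured members of 6 gene lists, without the level filter, in each library. NCAC (orange, left) and Con (blue, right) are shown by week after injection, with the mean of each group of 5 as a line. Replicate 5 of Con at 8 weeks stands alone at 4.26 for interferon-induced genes and 5.51 for MHC class I genes, above the highest NCAC values of 2.77 and 3.23.

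The libraries of 2 weeks, which the pooled comparison leaves out, called 9 of 14455 genes (0.0623%), 8 higher and 1 lower in NCAC. Of these, Folr1, a folate receptor (1.81), Kcnj13, a potassium channel (1.56), Enpp2, which makes lysophosphatidic acid (0.95), and Aqp1, a water channel (0.84), are genes of the choroid plexus. Msx1 (0.75) had the lowest adjusted p, 0.0156, followed by Wfdc2 (1.18) and the histamine receptor gene Hrh3 (0.44), each at 0.0284. Prr32 (1.45) was also higher, and Sat1, an enzyme of polyamine breakdown, was lower (-0.39). The 11 choroid plexus markers had a median of 1.22 at 2 weeks, with 11 higher, and of 0.13 over weeks 4 to 8. The 8 hypothalamus and pituitary markers tested at 2 weeks had a median of -2.06, and -0.53 without replicate 5 of Con, where Pmch was at 352 TPM. The other called genes were not sorted by tissue. In the 5 CAC libraries of 4 weeks, Msx1, Wfdc2 and Folr1 were each highest in replicate 4, at 12.4, 6.90 and 26.4 TPM. Each was lowest in replicate 1, at 2.89, 0.458 and 0.780 TPM. Not every choroid plexus marker followed this order. Ttr was lowest in replicate 4, at 118.2 TPM, and highest in replicate 3, at 3049 TPM. Kcne2 was at 2.19 TPM in replicate 3 and 2.163 TPM in replicate 4. The part that choroid plexus or other tissue has in the 2-week calls was not tested. The count of 9 rests on single libraries. It was 308 without replicate 4 of NCAC, 23 without replicate 3 of NCAC, 17 without replicate 1 of Con, 1 without replicate 3 of Con, and 0 without replicate 1, 2 or 5 of NCAC or replicate 2 or 4 of Con. In the pooled comparison none of the 9 genes was called, and their differences were 0.33 for Folr1, 0.16 for Kcnj13, 0.14 for Enpp2, 0.12 for Aqp1, 0.14 for Msx1, 0.24 for Wfdc2, 0.01 for Hrh3, 0.23 for Prr32 and -0.09 for Sat1.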

How the data were processed

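The authors deposited a single table of TPM values, with 47643 gene symbols in rows and a column per library. Trizol extraction, a stranded mRNA library kit and an Illumina NovaSeq instrument are named per the labels' protocols. The same text names LLC cells and 3 weeks, which match neither these cells nor these weeks. The submitters' processing notes name mm10 as the build. For aligner, quantifier, annotation and use of strand the sources used here give nothing. TPM keeps no depth, so reads per library were estimated from the steps of low values with GENCODE vM21 exon lengths, where 85.6% to 87.3% of values between 0.5 and 10 reads were whole within 0.05. No 2 libraries held identical values (highest correlation 0.9946).

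Genes that averaged 1 TPM or more over the libraries fitted were transformed to log2(TPM + 1) and fitted with limma 3.58.1 in R 4.3.3, with empirical Bayes moderation and trend. Arm and week were terms over 30 libraries. P-values are two-sided and Benjamini-Hochberg adjusted over all genes tested, and an adjusted p under 0.05 was a call. Single weeks and the arm by week interaction came from a 6-group fit of the same libraries, and 2 weeks and the CAC comparisons from their own libraries. The fit was tested on simulated data. Named genes were the 8 with the lowest p in each direction where fewer than 8 were called, the 2 lowest-p members of each of 34 gene lists, and Lcn2, Lrg1, Fkbp5 and Ighm; gene models, clones, pseudogenes and 27 symbols turned into dates were not ranked. A few genes that this rule names are not reported here. Other genes named were chosen after their values were seen. The comparison and the lists were chosen with earlier results of these data known. Lists with under 3 tested members (T and NK lymphocytes, neutrophils, pigment cells) have no median. Whether replicates are separate mice is given only by the word biological replicates. Antisense and near-identical genes are uncertain.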

Additional observations from a re-analysis of the deposited data

Results flagged for a closer look

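Levels in groups of 5 libraries were checked for a lowest or highest value far from the rest. Of 336 such checks over 56 genes and lists, 28 stood out, and chance alone gives about 1 in 20 groups. Replicate 5 of Con at 8 weeks held 18 of them. It was high for Ifit2 at 12.81 TPM, Psmb8 at 21.4, B2m at 934.6, Csf1r at 111.1, Mt1 at 751 and Vwf at 11.21 TPM. It was also high for Igkc at 652.3, Jchain, the joining chain of immunoglobulins, at 39.1, Ighm at 255.6 and Lrg1 at 5.288 TPM, and low for Haus3 at 4.219 and Cdkn1a at 17.61 TPM. Its mean log2 level was high over interferon-induced genes at 4.257, MHC class I genes at 5.506, complement genes at 4.489, microglia genes at 5.635, cytokine and acute phase genes at 2.545 and endothelial genes at 4.99.

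In NCAC libraries, Gpr34 was high at 20.42 TPM in replicate 1 at 6 weeks, Olig1 low at 110.3 TPM in replicate 2 at 4 weeks and Vwf low at 3.421 TPM in replicate 4 at 8 weeks. In Con libraries, Igkc was high at 183.3 TPM and Jchain at 8.664 TPM in replicate 1 at 6 weeks, and Igkc at 4.75 TPM in replicate 2 at 4 weeks. Pllp was high at 67.93 TPM in replicate 5 at 6 weeks and Mag at 117.5 TPM in replicate 3 at 8 weeks. Replicate 2 of Con at 6 weeks was low for Fos at 20.93 TPM and for the mean log2 level of immediate early genes at 4.631.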

How the results depend on the processing

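The pooled comparison called 0 genes in each of 46 alternatives, 16 other settings and 30 fits without 1 library, with a lowest adjusted p of 0.1108 when week 2 was added. For 45 named genes 2063 values under alternatives held 0 calls, and the 18 that turned sign belonged to Fkbp5 and Lrg1, both near 0. Fkbp5 was 0.0251 with TMM scaling, 0.0248 without week 4, 0.0930 with weeks 2 to 8, 0.0291 without replicates 1 and 3 of NCAC at 4 weeks together and 0.0155 with voom, and -0.0522 to 0.0289 when 1 library was left out. Lrg1 was 0.0370 with scores of other tissue as terms and -0.0778 to 0.0412 when 1 library was left out. The 2-week count of 9 was 3 with a pseudocount of 0.1, 0 without the filter, 5 with TMM scaling, 3160 with precision weights per library, 17 with the replicate block, and 0 to 308 when 1 library was left out. CAC against Con gave 4757 calls with precision weights, and CAC against NCAC 2913 with the replicate block. The cause of these shifts was not tested. The replicate block changed no call of the pooled comparison: same-numbered NCAC and Con libraries correlated at -0.1012 to 0.1841 over 15 pairs, with 6 over 0.1 and 6 best with their own number, so the numbers were not treated as pairs. The list medians without week 4, 6 or 8, voom and leaving out replicate 5 of Con at 8 or 2 weeks were chosen with the data seen or with earlier results known. Genes under 1 TPM have intervals set by few reads.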
